A study of Mus musculus with 21 samples.

Results

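Interleukin-33 (Il33) and its relatives of the interleukin-1 family were followed in N202 mouse mammary tumour cells that had been grown on foreign tissue in living mice. The 8 genes are Il33, Il1a, Il1b, Il1rn, Il18, Il1r1, Il1rap and Il1rl1. They were chosen by their measured log2 level in parental cells and in every tissue and passage, so these levels are given as a description. Where the fit across all genes called a member, the call is set beside the share of all genes called and supports nothing. Of the 8 genes, 6 carried a name in the array's annotation, out of 19937 named genes in all, and each of the 6 had 1 probe set (the group of probes that reports 1 transcript). Il1r1, the signalling receptor for interleukin-1, and Il1rl1, the receptor chain that binds interleukin-33 (also called ST2), were not analysed here.

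Members of the interleukin-1 family are cytokines that warn of damage and infection. Il33 and Il1a encode proteins that also sit in the nucleus and act as alarm signals when cells are injured, whereas Il1b and Il18 are made as precursors that inflammasome proteases cut. Each ligand binds a receptor chain, which for interleukin-1 and interleukin-33 then recruits the shared partner encoded by Il1rap. Il1rn encodes the antagonist that occupies the interleukin-1 receptor without signalling. In the brain, interleukin-33 is known mainly from astrocytes and oligodendrocytes.

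The study asked how tumour cells adapt to a tissue that is new to them. N202 cells are a single line (clone N202.1A) from mammary tumours of FVB-NeuN mice, whose rat HER-2/neu transgene is driven by the MMTV promoter, and all cells here, parental ones included, carried a fusion of histone H2B with green fluorescent protein (GFP). Spheroids were placed on minced, revascularised tissue of C57BL/6 donors in skinfold chambers of female nude mice, which lack T cells but keep innate immune cells, and were recovered after 21 days. G418 selection, regrowth in culture and sorting for GFP preceded RNA isolation, so the arrays report cultured cells and not tumours in place.

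The 21 arrays fell into 16 groups. Cells adapted to brain were profiled at passages P1, P2, P3 and P4 with 2 arrays each. A second brain experiment gave 1 array at P1 and 1 at P2, bone marrow and lung gave 1 array per passage from P1 to P4, and breast tissue was profiled with 1 array, at P1. Parental cells (P0), which had never been on tissue, gave 2 arrays. The second brain arrays of P1 to P4 are labelled technical replicates. Both arrays of a pair, the parental pair included, came from separate cultures of the same cells, so errors here measure the spread between such cultures and not between independent adaptations. Values are log2 robust multiarray average (RMA) intensities. Levels of different genes come from different probes and are not set against each other.

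Probe sets whose highest group mean was below 7.33 were left out of the fit, which kept 7300 genes. Il33, Il1rn and Il1rap passed. Il33 passed through 1 group alone, brain P2, so its presence among the kept genes already required a difference between groups. Il1a, Il1b and Il18 stayed below the limit in all 16 groups. Brain P1 and P2 are called early passages below, and P3 and P4 late passages.

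The promoter windows of the 3 genes above the limit are shown because these genes had their highest or near-highest levels in the same early brain passages. The sequences are from RefSeq on build GRCm38.p6 and run 5′ to 3′ over 300 bases, from 250 bases before the start of transcription to 50 after it. Capitals mark matches, on either strand, to the AP-1 motif TGANTCA, the NF-kB motif GGANTTTCC, the GAS motif TTCNNNGAA, the ISRE core AAANNGAAA, the ARE core TGACNNNGC or the TATA box TATAAA.
Il33, window 1 (chr19:29924863-29925162, plus strand): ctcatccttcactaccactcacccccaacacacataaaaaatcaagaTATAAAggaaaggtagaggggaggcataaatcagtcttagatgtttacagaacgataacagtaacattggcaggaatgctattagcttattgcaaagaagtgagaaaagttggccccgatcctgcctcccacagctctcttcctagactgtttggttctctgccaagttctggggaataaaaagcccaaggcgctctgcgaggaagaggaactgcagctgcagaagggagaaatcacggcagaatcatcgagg
Il33, window 2 (chr19:29945540-29945839, plus strand): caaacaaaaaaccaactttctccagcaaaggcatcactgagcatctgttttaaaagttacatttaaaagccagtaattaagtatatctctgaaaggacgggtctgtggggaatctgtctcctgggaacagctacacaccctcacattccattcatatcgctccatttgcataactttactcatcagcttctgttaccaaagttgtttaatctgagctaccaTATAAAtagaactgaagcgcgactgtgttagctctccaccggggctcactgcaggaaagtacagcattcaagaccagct
Il1rn, window 1 (chr2:24336610-24336909, plus strand): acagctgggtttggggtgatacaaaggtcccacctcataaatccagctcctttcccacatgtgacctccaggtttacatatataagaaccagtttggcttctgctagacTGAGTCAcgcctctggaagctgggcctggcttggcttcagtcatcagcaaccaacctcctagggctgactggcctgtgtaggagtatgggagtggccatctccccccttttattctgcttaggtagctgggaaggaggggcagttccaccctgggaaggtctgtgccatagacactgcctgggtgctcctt
Il1rap (chr16:26581455-26581754, plus strand): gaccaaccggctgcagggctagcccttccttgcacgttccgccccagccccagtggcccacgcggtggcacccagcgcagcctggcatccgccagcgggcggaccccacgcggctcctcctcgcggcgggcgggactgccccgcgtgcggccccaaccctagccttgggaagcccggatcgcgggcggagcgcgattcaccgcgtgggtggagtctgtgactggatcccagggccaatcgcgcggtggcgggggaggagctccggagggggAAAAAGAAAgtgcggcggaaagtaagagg

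Both Il33 windows held the TATA letters, TATAAA, at -203 in the first and at -29 in the second, counted from the start. The first Il1rn window held an AP-1 match, TGAGTCA, at -141. The Il1rap window held an ISRE core match, AAAAAGAAA, at 22, and was 72.0% G and C, against 46.3% and 42.3% in the Il33 windows and 54.0% in the first Il1rn window. Among all 32851 windows in the table, 13.6% held the TATA letters, 7.81% an AP-1 match, 10.6% an ISRE core, 12.4% an ARE core, 8.3% a GAS match and 1.25% an NF-kB match. No window of Il33, Il1rn or Il1rap held the NF-kB letters. The array values do not separate transcripts that begin at different starts. All 8 genes had a window, 13 in all. The other 2 Il1rn windows, not printed, overlap. Their ISRE core match, TTTCTCTTT, is the same site, at 9 in the second window and at -72 in the third. The third also held the TATA letters, on the minus strand at 15, after the start.

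Il33 was higher in cells of the first 2 passages of the first brain experiment than on any other array of the series. Its log2 level was 5.45 and 4.75 in parental cells, 7.10 and 7.07 at brain P1, 7.90 and 8.87 at brain P2, 5.52 and 5.89 at P3, and 4.27 and 5.37 at P4. The 4 early brain arrays lay above both parental arrays and above all 4 late brain arrays, and both brain P2 arrays lay above both brain P1 arrays. The late brain arrays overlapped the parental ones.

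Against parental cells, the fitted difference of Il33 was 1.98 (SE 0.42) at brain P1, or 3.95-fold, and 3.28 (SE 0.42) at brain P2, or 9.71-fold. Parental levels lay below the filter limit, so these folds rest on a dim parental signal. Over the late passages the difference from parental cells was 0.16 (SE 0.37). Early over late brain passages gave 2.47 (SE 0.30), or 5.55-fold. Without 1 parental or 1 brain P1 array at a time, the brain P1 difference ran between 1.63 and 2.33, and without 1 parental or 1 brain P2 array, the brain P2 difference ran between 2.80 and 3.76.

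The second brain experiment gave lower Il33 levels than the first, 6.27 at P1 and 5.77 at P2. Both were above the 2 parental arrays and below every early array of the first experiment, and the fitted difference from parental cells over both passages was 0.91 (SE 0.42). In this experiment P2 did not lie above P1.

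Outside brain, no Il33 value reached those of the early passages of the first brain experiment. Bone marrow arrays measured 4.51, 4.47, 6.13 and 5.78 from P1 to P4, so the late marrow passages were above both parental arrays and the early ones below. Lung arrays measured 4.04, 4.91, 4.74 and 5.55, and the breast array measured 4.49. Fitted differences from parental cells were 0.12 (SE 0.37) in bone marrow, -0.29 (SE 0.37) in lung and -0.61 (SE 0.52) on breast tissue. In bone marrow and lung the difference was smaller than its standard error.

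By group mean, Il33 was ordered from brain P2 (8.38) through brain P1 (7.08), second brain P1 (6.27), bone marrow P3 (6.13), bone marrow P4 (5.78), second brain P2 (5.77), brain P3 (5.70) and lung P4 (5.55) down to parental cells (5.10), lung P2 (4.91), brain P4 (4.82), lung P3 (4.74), bone marrow P1 (4.51), breast P1 (4.49), bone marrow P2 (4.47) and lung P1 (4.04). The SD between paired arrays was 0.53, pooled over the 5 pairs. Brain P2 and brain P1, and brain P1 and second brain P1, were each apart by more than that spread. Every later neighbour in the order was within it, so the order of neighbours from second brain P1 down is not resolved. Some groups further apart in the order differed by more than that spread, as bone marrow P3 (6.13) and lung P1 (4.04) did.

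**Figure D1:**
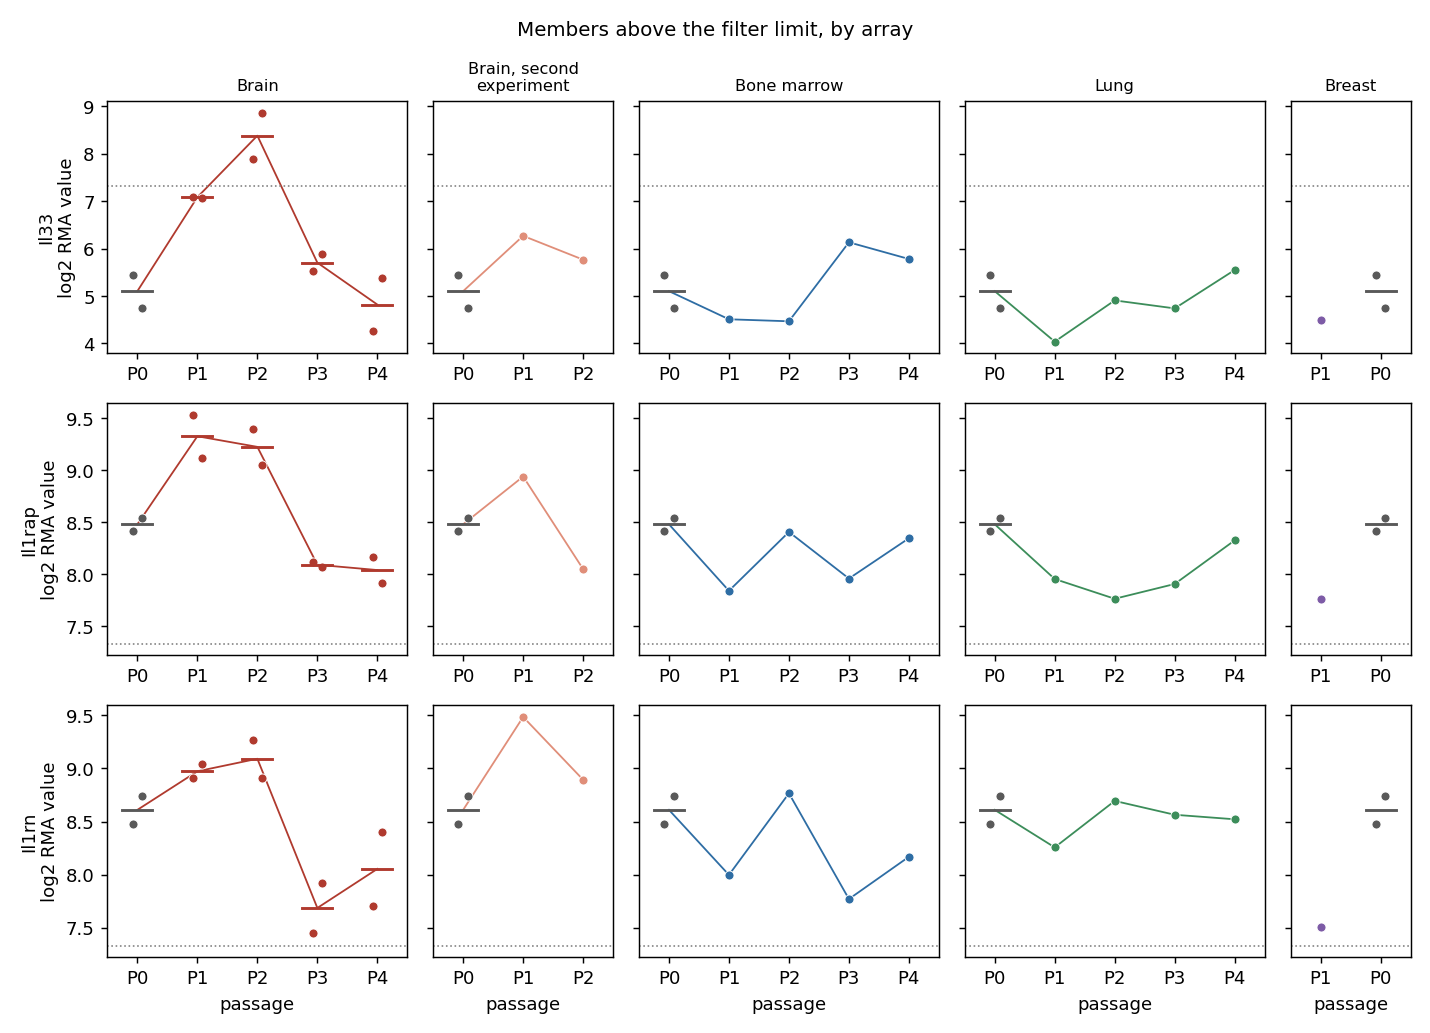
Log2 RMA values (vertical axis) of Il33, Il1rap and Il1rn by passage (horizontal axis), in 1 column per tissue. Each point is 1 array, short bars are means of 2 arrays, lines join group means, parental P0 is grey and is repeated in each column, and the dotted line is the filter limit of 7.33. Il33 peaked at brain P2 with a mean of 8.38, against 5.10 in parental cells, and Il1rap and Il1rn were higher at brain P1 and P2 than at P3 and P4.

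Il1rap encodes the accessory chain that the interleukin-1, interleukin-33 and interleukin-36 receptors all need for signalling. Its level was 8.42 and 8.54 in parental cells, 9.53 and 9.12 at brain P1, 9.40 and 9.05 at brain P2, 8.11 and 8.07 at P3, and 8.16 and 7.92 at P4. The 4 early brain arrays were above both parental arrays, and the 4 late brain arrays were below both. Fitted differences from parental cells were 0.85 (SE 0.21) at brain P1, 0.74 (SE 0.21) at brain P2 and -0.41 (SE 0.18) late, and early over late passages gave 1.21 (SE 0.15). Leaving out 1 of the 2 brain P1 arrays moved the brain P1 difference to 0.64 or to 1.05.

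In the second brain experiment Il1rap measured 8.94 at P1 and 8.05 at P2, so P1 was above and P2 below the parental arrays. Bone marrow gave 7.84, 8.41, 7.96 and 8.35 from P1 to P4, lung gave 7.95, 7.76, 7.90 and 8.32, and breast gave 7.76. All 9 of these arrays lay below both parental arrays, a pattern that was not counted over all genes. The fitted differences were -0.34 (SE 0.18) in bone marrow, -0.49 (SE 0.18) in lung and -0.72 (SE 0.25) on breast tissue. The SD between paired arrays was 0.19.

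Il1rn, the receptor antagonist, followed the same brain course with smaller steps at first. It measured 8.48 and 8.74 in parental cells, 8.91 and 9.04 at brain P1, 9.27 and 8.91 at brain P2, 7.45 and 7.92 at P3, and 7.71 and 8.40 at P4. The early arrays again lay above, and the late arrays below, both parental arrays. Fitted differences from parental cells were 0.36 (SE 0.27) at P1, 0.48 (SE 0.27) at P2 and -0.74 (SE 0.24) late. Early over late passages gave 1.16 (SE 0.19).

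Il1rn was also above both parental arrays in the second brain experiment, at 9.48 in P1 and 8.89 in P2, and the P1 value was the highest of all 21 arrays for this gene. Bone marrow measured 7.997, 8.77, 7.77 and 8.17 from P1 to P4, and lung measured 8.26, 8.69, 8.56 and 8.52. The breast array, at 7.51, was below all others except the first brain P3 array. Fitted differences were 0.58 (SE 0.27) in the second brain experiment, -0.43 (SE 0.24) in bone marrow, -0.10 (SE 0.24) in lung and -1.10 (SE 0.33) on breast tissue. The SD between paired arrays was 0.30.

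The members' fits are set beside those of all kept genes, without reading a result from them because these same values chose the members. At an adjusted p under 0.05 (limma, Benjamini-Hochberg), 1.93% of the 7300 kept genes were higher and 3.62% lower at brain P1, and 1 member, Il33, was among the higher. At brain P2, 4.9% were higher and 8.37% lower, and Il33 was again the 1 member. Early over late brain passages had 16.6% higher and 10.9% lower, with Il33, Il1rn and Il1rap among the higher. No member passed in late brain (0.164% of genes higher, 0.644% lower), the second brain experiment (0.164%, 0.151%), bone marrow (0.11%, 0.26%), lung (0.0685%, 0.137%) or breast (0.0548%, 0.205%). The brain P1 pass of Il33 was lost without the filter, with a variance trend, and without either parental array or either brain P1 array. Without the 5 arrays with the highest floor (given at the end), no member passed at brain P1 or P2 and only Il33 did in early over late passages. Il1rap joined Il33 at brain P1 and at brain P2 when the filter kept only 7000 probe sets, when arrays were set to equal medians or scaled by cyclic loess, and with the array number as a block.

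Arrays that did not overlap were common among all genes as well. In 13.7% of kept genes the 4 early brain arrays lay above both parental arrays, in 15.4% they lay above the 4 late brain arrays, and in 16.4% the 4 late brain arrays lay below both parental arrays. Il33, Il1rn and Il1rap showed the first and the second pattern, and Il1rn and Il1rap the third. Other separations of arrays named in the text were not counted over all kept genes and are description only. The median difference of all kept genes was -0.02 at brain P1, -0.05 at brain P2, -0.15 in late brain and 0.10 for early over late passages.

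The 3 remaining genes were dim. Il1a, whose product is an alarm cytokine active without inflammasome cutting, measured 3.67 and 3.17 in parental cells, 4.42 and 3.92 at brain P1, 3.45 and 3.70 at P2, 5.64 and 6.08 at P3, and 3.38 and 3.93 at P4. Its highest group was thus brain P3, where Il33 was already low, and at brain P2, where Il33 was highest, 1 of the 2 arrays lay within the parental range. Breast P1 followed at 5.38 and second brain P1 at 4.95, and bone marrow gave 3.52, 4.14, 4.70 and 4.74. Lung gave 3.42, 3.44, 3.40 and 4.64. The brain P3 mean was 5.86, or 2.44 above parental cells (3.42), still below the limit of 7.33.

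Il1b, the main secreted interleukin-1 of macrophages, stayed between 3.50 and 4.78 on all 21 arrays, and both parental arrays gave 4.08. Its highest value came from the second of the 2 brain P3 arrays, which also had the highest floor of all arrays (5th percentile of 3.04), and the part of the floor in that value was not tested. Il18, an inflammasome-dependent cytokine that drives interferon-gamma production, ranged between 3.31 and 4.49, with parental arrays between. Both genes were left out of the fit, and whether a difference in Il1b or Il18 could be detected at these intensities was not tested.

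**Figure D2:**
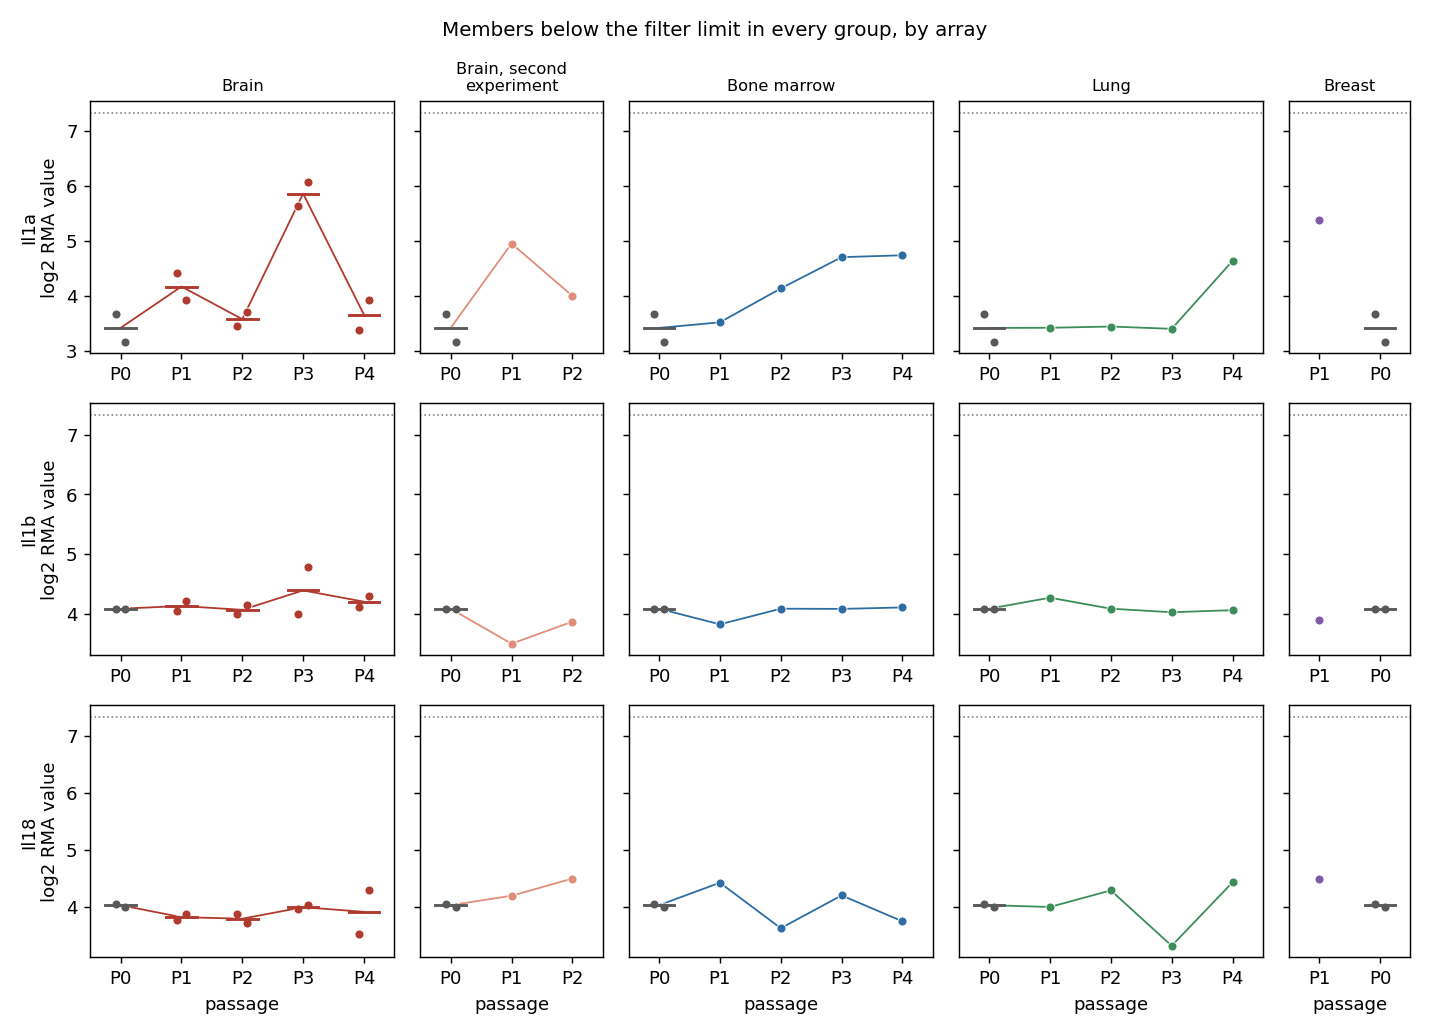
Log2 RMA values (vertical axis) of Il1a, Il1b and Il18 by passage (horizontal axis), drawn as for the genes above the limit, with 1 point per array, bars for means of 2 arrays and parental P0 in grey. All points lie below the dotted filter limit of 7.33, and Il1a at brain P3, with a mean of 5.86, is the highest group.

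Across the 16 group means, the level of Il33 ran with that of Il1rap (Pearson r 0.79, Spearman rho 0.65) and less with that of Il1rn (r 0.46, rho 0.43), and Il1rn ran with Il1rap (r 0.69, rho 0.64). These correlations are a description, since the groups share 1 cell line and 1 normalization. Over the 11 groups outside parental cells and the first brain experiment, r was 0.55 for Il33 with Il1rap and 0.33 for Il33 with Il1rn. Il33 with Il1a gave an r of 0.15 over the 16 groups.

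**Figure D3:**
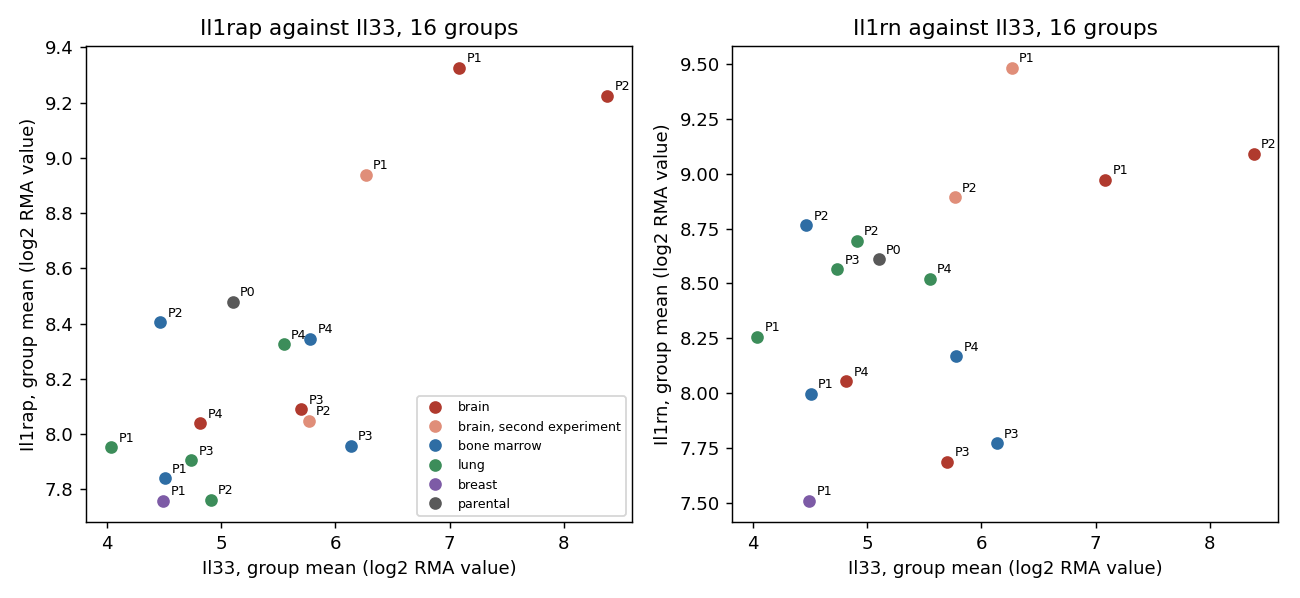
Group means of Il1rap (left panel) and Il1rn (right panel) against the group mean of Il33, all in log2 RMA values, with 1 point per group labelled by passage and coloured by tissue. Brain P1 and P2 lie at the upper right of both panels, and r is 0.79 on the left and 0.46 on the right.

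Among all kept genes, those with group means most like Il33 over the 16 groups were Use1 (r 0.90), Man1c1 (0.88), Gsta3 (0.87), Ufsp1, Lcorl, Sdhaf3, Bloc1s3 and Tmem203 (all 0.85). They lie on 7 chromosomes other than that of Il33. Over the 11 groups outside parental cells and the first brain experiment, r was lower for each, from 0.47 for Bloc1s3 to 0.85 for Use1. These genes were picked as the highest r among all kept genes, so the values are description only. Man1c1 came closest to Il33 in size, at 2.10 above parental cells in brain P1 and 2.50 in brain P2, while Use1 was 0.21 and 0.85 above. The genes most like Il1rap were Ddx54 (r 0.92), Gnaq (0.91) and Bcas3 (0.91), and those most like Il1rn were Clec16a (0.89), Gnptg (0.88) and Klf13 (0.88).

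The other genes of the interleukin-1 pathway were counted over 5 lists of 89 genes (ligands, receptors, processing enzymes, signalling proteins and target genes), of which 83 had a named probe set and 52 passed the filter. Among the 5 other ligands 1 passed, interleukin-36 alpha, which the annotation names by its older symbol Il1f6. Its receptor also uses the Il1rap chain. Its levels were 4.75 and 7.99 in parental cells, 8.50 and 9.08 at brain P1, 9.44 and 9.22 at brain P2, 6.08 and 6.60 at P3, and 7.13 and 7.85 at P4. The second brain experiment gave 9.42 and 8.72, and the bone marrow, lung and breast arrays lay between 6.06 and 8.11. The 6 early-passage brain arrays of both experiments thus lay above the other 15, a pattern that was not counted over all genes.

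Il1f6 rose in early over late brain passages by 2.14 (SE 0.58, adjusted p = 0.028, limma), or 4.42-fold. Against parental cells its differences were 2.42 (SE 0.82, adjusted p = 0.14) at brain P1 and 2.96 (SE 0.82, adjusted p = 0.051) at brain P2, neither past the threshold, and 1 parental array lay below and 1 above all 4 late brain arrays. The early over late call ended without either array of brain P1, P2 or P3 or the first array of P4 (adjusted p between 0.058 and 0.087).

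Of the 3 other receptor genes that passed, Il18r1 and Il18rap, the 2 chains of the interleukin-18 receptor, and Sigirr, an inhibitory receptor of the family, none passed the test in any comparison. Sigirr came nearest in early over late brain passages, with a difference of 0.51 (SE 0.21, adjusted p = 0.10).

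Of 5 processing enzymes tested, Capn1, which encodes calpain-1, a calcium-dependent protease, fell in early brain passages. It measured 8.27 and 8.47 in parental cells, 7.35 and 7.05 at brain P1, 7.56 and 7.05 at brain P2, 8.65 and 8.53 at P3, and 8.78 and 8.28 at P4. The 4 early arrays were the lowest of the 21, and the share of all genes with that pattern was not counted. Capn1 fell by 1.17 (SE 0.24, adjusted p = 0.031, limma) at brain P1 and by 1.07 (SE 0.24, adjusted p = 0.026) at brain P2 relative to parental cells, and by 1.31 (SE 0.17, adjusted p = 0.0012) in early over late passages. In the second brain experiment it measured 8.01 and 8.81. The brain P1 call ended without either array of brain P1 or of the parental cells (adjusted p between 0.095 and 0.21) and the brain P2 call without either parental array or the second of the 2 brain P2 arrays (0.088 to 0.15), while the early over late call held in all 10 fits that left out 1 array. With chromosome medians subtracted, the calls of Capn1 at brain P1 (-0.88, adjusted p = 0.0504) and P2 (-0.75, adjusted p = 0.0512) ended too. Casp1, the inflammasome protease, differed by 0.50 (SE 0.18, adjusted p = 0.070) in early over late passages.

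Of 25 signalling genes tested, none passed at brain P1, and 1 rose and 1 fell at brain P2. In early over late passages 2 were higher and 4 lower. Tab2, an adaptor of the kinase TAK1, measured 10.47 and 10.50 in parental cells, 10.65 and 10.59 at brain P1, 11.32 and 11.05 at brain P2, 10.30 and 10.18 at P3 and 10.42 and 10.34 at P4. It rose by 0.70 (SE 0.17, adjusted p = 0.031) at brain P2 over parental cells and by 0.59 (SE 0.12, adjusted p = 0.0081) in early over late passages. Irak2, a receptor-proximal kinase, was higher by 0.97 (SE 0.24, adjusted p = 0.019, limma) in early over late passages. Relative to parental cells Irak2 differed by 0.25 at brain P1, 0.68 at brain P2 and -0.51 in late brain, none of which passed. Map3k7, which encodes TAK1 itself, fell by 0.97 (adjusted p = 0.021) at brain P2 and by 0.57 (SE 0.15, adjusted p = 0.025) in early over late passages. With the median of its chromosome subtracted on each array, the 2 differences of Map3k7 were -0.40 and -0.03 and neither passed.

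The other 3 signalling genes that were lower in early than in late passages include 2 that restrain the pathway. Tnfaip3 (A20, a brake on NF-kB) was lower by 0.54 (SE 0.13, adjusted p = 0.019, limma). Nfkbia (the inhibitor that holds NF-kB in the cytoplasm) was lower by 0.50 (SE 0.16, adjusted p = 0.049) and Mapk8 (the kinase JNK1) by 0.49 (SE 0.15, adjusted p = 0.043). Relative to parental cells, Tnfaip3 differed by -0.13 at brain P1, -0.28 at brain P2 and 0.33 in late brain. In the same order Nfkbia differed by -0.28, -0.58 and 0.07 and Mapk8 by -0.01, -0.12 and 0.42, and none of these passed. With chromosome medians subtracted, the calls of Mapk8 (-0.13, adjusted p = 0.59) and Nfkbia (-0.37, adjusted p = 0.13) ended. The common core of the pathway did not pass: Myd88 differed by -0.37 (SE 0.15, adjusted p = 0.11), Irak1 by 0.17 (SE 0.15), Traf6 by -0.04 (SE 0.17) and Rela by 0.07 (SE 0.13). Irak4 and Nfkb1 were not analysed here.

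Of 18 target genes tested, 1 passed at brain P1, 1 at brain P2 and 4 in early over late passages, all higher. Ptgs2 (cyclooxygenase-2) rose by 2.88 (adjusted p = 0.046) at brain P1 over parental cells. Its 2 parental arrays lay far apart, at 10.47 and 8.16, and without the second or the first of them the difference was 1.73 or 4.04. The Ptgs2 difference did not follow the early passages, at 0.15 in brain P2, 2.24 in late brain, 2.92 in the second brain experiment and 2.17 on breast tissue, none of which passed. Lif, a cytokine of the interleukin-6 group, rose by 1.32 (adjusted p = 0.011) at brain P2 over parental cells. Ccl20, a chemokine for CCR6-bearing lymphocytes, measured 7.22 and 9.06 in parental cells, 9.64 and 9.13 at brain P1, 10.01 and 9.77 at brain P2, 7.49 and 8.23 at P3 and 8.31 and 7.01 at P4. It was higher by 1.88 (SE 0.42, adjusted p = 0.013, limma) in early over late passages. So were the monocyte chemokine Ccl7 by 1.34 (SE 0.38, adjusted p = 0.034), Lif by 0.67 (SE 0.17, adjusted p = 0.022) and the apoptosis inhibitor Birc3 by 0.60 (SE 0.18, adjusted p = 0.044). Relative to parental cells, Ccl7 differed by 1.40 at brain P1, -0.18 at brain P2 and -0.74 in late brain. Birc3 differed by -0.16, 0.27 and -0.54 in the same order, and none of these passed. With chromosome medians subtracted, the early over late calls of Ccl7 (adjusted p = 0.052), Lif (0.0502) and Birc3 (0.059) and the brain P1 call of Ptgs2 (0.057) ended. The median of the 18 targets was 0.31 in early over late passages, beside 0.10 over all kept genes. Against parental cells it was 0.47 at brain P1, 0.21 at brain P2, 0.03 in late brain, 0.26 in the second brain experiment, 0.37 in bone marrow, 0.35 in lung and 0.49 on breast tissue, so medians of this size were not confined to early brain passages.

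Leaving out 1 paired array at a time, the early over late calls of Capn1, Tab2 and Ccl20 held in all 10 fits, with highest adjusted p of 0.0075, 0.035 and 0.048, and the other 9 calls ended in some. In the fit without the filter, the early over late calls of Tab2 (adjusted p = 0.074, limma) and Ccl20 (0.080) ended. Without the 5 arrays with the highest floor, the differences of Capn1, Tab2 and Ccl20 were -1.26, 0.62 and 1.93. Irak2 was lost without the first array of brain P1 or P4, either array of P2 or the second of P3 (adjusted p between 0.05003 and 0.068), and Tnfaip3 without any of the 4 early arrays (0.051 to 0.063). Map3k7 was lost without the first array of P1 or P3, either of P2 or the second of P4 (0.055 to 0.091). Ccl7 (0.067 to 0.10) and Lif (0.053 to 0.067) were lost without either array of P1, the first of P2, the second of P3 or the second of P4. Birc3 was lost without any paired brain array except the first of P3 (0.073 to 0.12). Nfkbia held only without the second array of P4 (0.065 to 0.15 otherwise), and Mapk8 only without the first of P3 (0.054 to 0.14 otherwise). At brain P2, Map3k7 was lost without either parental or either P2 array (0.079 to 0.11), Tab2 without either parental, P1 or P2 array (0.059 to 0.17) and Lif without the second parental or the first P2 array (0.062 to 0.066). Ptgs2 at brain P1 was lost without the second parental array or any array of brain P1, P2 or P3 (0.063 to 0.21).

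No pathway gene passed in late brain, the second brain experiment, bone marrow, lung or breast, each against parental cells (limma). At an unadjusted p under 0.05, 3 were higher and 3 lower in late brain, 8 were higher in the second brain experiment, 5 in bone marrow, 3 in lung and 3 on breast tissue, and none was lower in these 4. Over all 52 genes 12 passed in early over late passages (23.1%), 2 at brain P1 (3.85%) and 4 at brain P2 (7.69%). In each of the 3 comparisons this share was smaller than that of all kept genes, both directions together, and nothing particular to the pathway can be read from the counts.

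**Figure D4:**
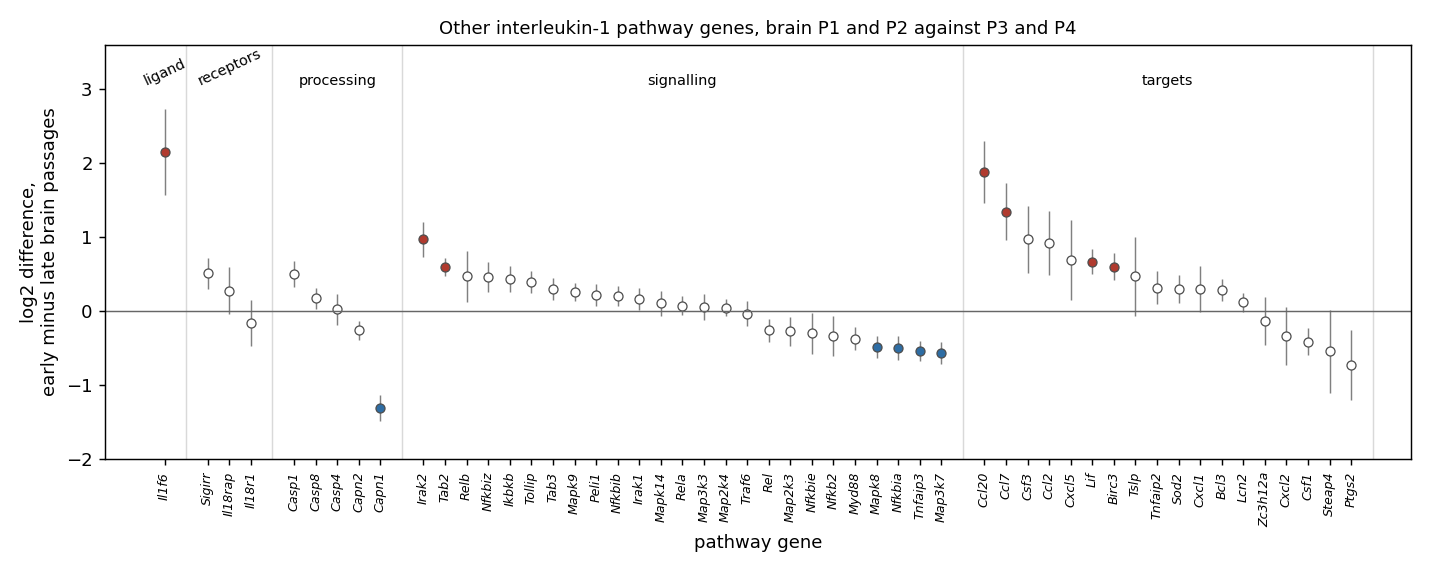
Log2 difference of 52 other pathway genes, brain P1 and P2 minus P3 and P4 (vertical axis), ordered within each of the 5 lists (horizontal axis). Points are fitted differences with standard errors, filled where the adjusted p was under 0.05 (red higher, blue lower in early passages). Il1f6 at 2.14 is the highest point and Capn1 at -1.31 the lowest.

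The arrays looked like mammary epithelium throughout, with 7 of 8 listed epithelial markers above the limit (Krt8 averaged 12.8). Markers of cells that could carry interleukin-1 family RNA from the host were mostly dim. Of 12 macrophage markers 2 passed the limit, Cd14 and Cd68. The defining markers Ptprc, Csf1r, Adgre1 and Itgam did not. Mean levels over the 12 were 5.14 to 5.34 on early brain arrays, 4.85 to 5.38 on the other adapted arrays and 4.95 to 4.98 on parental arrays, and Cd68 averaged 8.10 in early brain passages and 6.01 in parental cells. Of 8 measured astrocyte and oligodendrocyte markers only Mbp passed, at 7.26 in early brain passages and 7.24 in parental cells. Mean levels over the 8 were 4.83 to 5.02 on early brain arrays, 4.66 to 5.26 on the other adapted arrays and 4.83 to 4.97 on parental arrays. The astrocyte transporter Slc1a2, below the limit in every group, averaged 6.06 in early brain passages (5.75 at P1 and 6.37 at P2) and 4.86 in parental cells, with 4.98 at brain P3 and 5.83 at P4. No marker of lymphocytes, fibroblasts, endothelium or lung epithelium passed the limit. Of 7 mast cell and innate lymphoid markers Gata3 passed, a gene that mammary epithelium also expresses. The part of other cells in the Il33 values was not tested beyond these levels. In bulk RNA, more cells with a transcript and more transcript per cell cannot be told apart. The 5 arrays with the highest floor, between 2.49 and 3.04, were the second arrays of brain P1 to P4 and lung P1, and the other 16 had floors between 2.01 and 2.40.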

How the data were processed

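RNA from 21 cultures of parental and tissue-adapted N202 cells was hybridised to Affymetrix Mouse Gene 1.0 ST arrays. The authors normalized the arrays by RMA in Expression Console and deposited 1 table of log2 values with 34760 probe sets. Probe sets were named through the platform annotation, in which 21640 carry 1 gene symbol. The study's methods state no test of single genes between groups, and their filter on negative controls was imitated by keeping the 10522 probe sets with the highest group means (limit 7.33).

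Group means of 16 groups were fitted over the 21 arrays with limma 3.58.1 in R 4.3.3, with 5 residual degrees of freedom from the 5 pairs of arrays, which all lone arrays borrow. Adjusted p-values are Benjamini-Hochberg over all kept probe sets, with a threshold of 0.05. The fit was tested on simulated data. The members, lists and motifs were chosen with earlier results of these data known. Named were all members, the 8 genes most like Il33 and the 3 most like Il1rn and Il1rap. In each list the 3 genes called in each direction with the lowest adjusted p were named, together with core signalling genes. Birc3 was named beyond this after its values were seen. Casp1, Il18r1, Il18rap and Sigirr, which were not called, were also named beyond it. All comparisons with parental cells share the same 2 parental arrays. Alternatives were no filter, 7000 probe sets, robust variances with a trend, arrays set to equal medians or scaled by cyclic loess, a replicate block, subtracted chromosome medians and leaving out arrays. The number of arrays limits the precision.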

Additional observations from a re-analysis of the deposited data

Results flagged for a closer look

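Some effects ran in opposite directions in 2 sets of arrays, relative to the parental mean. Every early brain array was above and every late brain array below it for Il1rn, with a difference between the sets of 1.16, and for Il1rap, with a difference of 1.21. The second brain arrays were all above and the late brain arrays all below it for Il1rn, with a difference of 1.32. For Il1rap every early brain array was above it while every bone marrow array (difference 1.14) and every lung array (difference 1.29) was below it. Of these, bone marrow P2 (-0.07), bone marrow P4 (-0.13) and lung P4 (-0.15) lay within the SD between paired arrays of 0.19. In the second brain experiment Il1rap was itself below the parental mean at P2 (-0.43). For Il1rn the nearest early brain (0.296), second brain (0.28) and late brain (-0.21) arrays lay within its SD of 0.303. The early against late differences of both genes passed the fit across all genes, from which nothing is read because these levels chose the genes, and the other 3 differences were not tested. How many of all kept genes show such opposite directions was not counted. Among the 52 other pathway genes, 12 (23.1%) differed between early and late brain passages by the limma test of that difference itself. Of all kept genes, 16.6% were called higher and 10.9% lower in that comparison, so nothing particular to the pathway is read from the 12.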

How the results depend on the processing

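Of 336 recomputed differences of Il33, Il1rn and Il1rap, 332 moved by less than the spread between paired arrays and 4 moved more. Many of the 332 could not move, because the arrays left out had no part in the difference. The count of 332 is therefore no measure of stability. In 7 of the 336 the sign changed, all in differences of at most 0.29 that had not passed. These were Il33 in late brain, bone marrow and lung, Il1rn in lung and Il1rap in the second brain experiment. The 4 that moved more were Il1rap at brain P1 (0.64 or 1.05 without 1 of its 2 arrays, and 1.05 once the 5 arrays of highest floor are dropped, an alternative chosen after seeing the data) and Il1rn in early over late passages (1.51 without those 5). Averaging over all probe sets of a gene was not run, since each had 1.

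Counts of pathway genes were less stable, and 33 of 144 recomputed counts moved by more than 1.5 times. Without the filter, 0 passed at brain P1, 0 at brain P2 and 2 in early over late passages, against 2, 4 and 12 with it, and over all genes 36 higher and 44 lower, 72 and 82, and 490 and 342 passed, against 141 and 264, 358 and 611, and 1213 and 797. Dropping the 5 arrays of highest floor, which leaves the parental pair alone to estimate the spread, made 0, 0 and 0 pass, and over all genes 6 and 11, 8 and 4, and 58 and 54. With chromosome medians subtracted, 0 passed at brain P1 and 2 at brain P2, and over all genes 156 and 174, and 425 and 403. Cyclic loess gave 518 higher and 555 lower over all genes at brain P2. Without 1 paired array at a time, the counts ranged from 0 to 4 at brain P1, 1 to 7 at brain P2, 0 to 2 in late brain, 0 to 3 in the second brain experiment, bone marrow and lung, 0 to 1 on breast tissue and 3 to 14 in early over late passages.

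With the replicate block, 1 pathway gene passed in late brain instead of 0, and the counts at brain P1, brain P2 and early over late passages were 3, 6 and 13. The block also changed the sign of Il1rap in the second brain experiment (-0.08) and of Il1rn in lung (0.02). The array numbers were not taken to pair the samples, since deviations of same-numbered arrays, all correlated positively (0.009 to 0.36), were not all above 0.1. The second arrays of brain P1 to P4 share the raised floor, and their part in these correlations was not tested.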
